A study of Mus musculus with 6 samples.

Results

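Type I interferon-stimulated genes were followed in CD11c+ cells of the mouse liver with and without a targeted deletion of Atg5, a gene whose product is needed to form autophagosomes. The members were 36 genes chosen by symbol from the established targets of type I interferon, and all 36 were found among the 31426 genes of the count table. RNA-seq had been performed on 6 libraries of hepatic CD11c+ cells. The C57BL/6 mice had eaten HFD, a high-fat diet, over 14 weeks. Of these, 3 libraries carried the label WT (21, 22 and 23) and 3 the label Atg5 CD11cKO (25, 26 and 27). The animals are listed as 4 to 8 weeks of age, which cannot be their age after 14 weeks of diet. The study's methods describe them as males. In the Atg5 CD11cKO mice, floxed Atg5 alleles were targeted by a Cre driven by the promoter of Itgax, the gene of CD11c, so deletion was possible in any cell that had used that promoter. The study's text calls the WT mice floxed littermates, and its methods also name purchased C57BL/6J mice. All 6 libraries came from HFD-fed mice, were taken with magnetic beads against CD11c, and were made from 10 ng of RNA. No source used here says whether a library was 1 mouse or a pool, so p-values measure only the spread between these libraries.

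Type I interferons bind the receptor of IFNAR1 and IFNAR2, whose kinases JAK1 and TYK2 phosphorylate STAT proteins. STAT2 and IRF9 are subunits of ISGF3, the complex that binds the interferon-stimulated response element (ISRE) in the promoters of target genes. The induced proteins block viral RNA and protein synthesis, restrict viral entry and release, and include both amplifiers (IRF7) and brakes (USP18) of the pathway. In the liver, macrophages and dendritic cells (DCs) sense nucleic acids and respond to interferon, and plasmacytoid DCs hold high resting levels of Irf7 and Bst2.

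The libraries held 31064570 to 34034675 estimated counts each, and 1 of them resembled the libraries of the other label. The library labelled WT 23 had Atg5 at 22.06 CPM (counts per 1000000 of the library, scaled by TMM), beside 53.97 in WT 21, 49.76 in WT 22 and 20.76 to 21.29 in the Atg5 CD11cKO libraries. Atg5 RNA was thus reduced but still present in the Atg5 CD11cKO libraries. By RT-qPCR in mice fed normal chow, the study reports no Atg5 in hepatic CD11c+ cells of this genotype. Counts per gene do not show the deletion itself, and the genotype of WT 23 was not tested. In a chi-square comparison of counts over genes, WT 23 was nearer to each Atg5 CD11cKO library (5.93 to 7.39 per degree of freedom) than WT 21 was to WT 22 (10.1). Pairs of Atg5 CD11cKO libraries stood at 6.43 to 7.15, and no pair agreed within sampling noise. Every comparison was therefore made both ways, over all 6 libraries as labelled and without the library labelled WT 23. Itgax lay between 431.9 and 491.8 CPM in all 6 libraries, so the CD11c gene was present throughout. Summed markers of several other cell types moved with the same division of the libraries, while those of monocytes and B cells differed little. Hepatocyte markers summed to 2867 and 2805 CPM in WT 21 and WT 22 against 1059 to 1094 in the others, with 14 of 15 lower without WT 23. Type 1 conventional DC markers summed to 4966 and 4992 against 3521 to 3614 CPM, with 9 of 10 lower and 1 higher. All 12 pancreatic acinar markers were lower without WT 23, with sums of 20210 and 19880 CPM in WT 21 and WT 22 against 379 to 409.8 in the other 4 libraries, and all 9 Kupffer cell markers were lower as well (2047 and 2038 against 965.2 to 999.8 CPM). All 10 lipid-associated macrophage markers were higher (1939 and 1925 against 7441 to 7541 CPM). Of the 17 plasmacytoid DC markers, 15 were lower and 1 higher without WT 23. They summed to 4493 and 4510 CPM in WT 21 and WT 22, 3174 in WT 23 and 3152 to 3200 in the Atg5 CD11cKO libraries. These counts stand beside 15.9% of all 18241 genes higher and 15.1% lower without WT 23 (edgeR adjusted p under 0.05). Among genes of at least 10 CPM, the shares were 25.1% and 19.8%. None of the 17 was at 0 in any group, and the part of these cell types in the results was not tested.

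The promoters of the members were read for the sequence that ISGF3 binds, since it links these genes to interferon apart from their expression. RefSeq promoters (build GRCm38.p6, 250 bases before to 50 after the start) matched 27 of the 36 members by symbol, with 32 promoters. Usp18, Mx1, Mx2, Oas1b, Oas2, Parp9, Parp14, Ifi27l2a and Rtp4 had no entry. The ISRE core searched was GAAANNGAAA, where N is any base, on either strand (TTTCNNTTTC when the core lies on the other strand), with overlapping matches counted. A core was found in 14 of the 27 members (51.9%), in 15 of their 32 promoters (46.9%), and in 1131 of all 32851 RefSeq promoters of the same length (3.44%). The windows below carry the core in capitals with 8 flanking bases where these lie before the start, and are written 5′ to 3′ along the gene's own strand. They are shown for members that were higher (Ifit3, Oas1a and Rsad2), lower (Stat2 and Bst2) and not called (Isg15, Ifit1 and Oas3) without WT 23, and every match is a description of the letters, not a measured binding site.
Stat2: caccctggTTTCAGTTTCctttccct
Bst2: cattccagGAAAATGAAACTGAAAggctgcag
Ifit3: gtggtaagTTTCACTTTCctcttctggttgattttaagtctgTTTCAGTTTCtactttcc
Oas1a: cttctcggGAAATGGAAACTGAAAatct
Rsad2: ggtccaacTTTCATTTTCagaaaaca
Isg15: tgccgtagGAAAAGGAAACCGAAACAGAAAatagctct
Ifit1: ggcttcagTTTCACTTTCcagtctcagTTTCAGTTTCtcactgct
Oas3: agggaggaGAAAACGAAAgtgaaggg

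The Isg15 window (chr4:156200867-156200904, minus strand) held 3 overlapping cores between 78 and 57 bases before the start (positions -78 to -57). Pairs of overlapping cores stood in the windows of Oas1a (chr5:120907526-120907553, minus strand, positions -20 to -5) and Bst2 (chr8:71537579-71537610, minus strand, positions -130 to -115). The windows of Ifit3 (chr19:34583365-34583424, plus strand) and Ifit1 (chr19:34640777-34640821, plus strand) held 2 separate cores each, all on the strand opposite to the gene. Ifit3b carried the very letters of the Ifit3 window at chr19:34607761-34607820. Single cores lay in the windows of Stat2 (chr10:128270268-128270293, plus strand, positions -222 to -213), Rsad2 (chr12:26456555-26456580, minus strand, positions -120 to -111) and Oas3 (chr5:120777717-120777742, minus strand, positions -75 to -66). Oas1c, Oas1g and Trim30a also held a core before the start. Eif2ak2 held 1 core and Ifitm3 held 2, all of them after the start. By expression without WT 23, a core was present in 4 of the 9 members with a promoter that were higher, 2 of the 5 that were lower and 8 of the 13 that were not called.

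**Figure D1:**
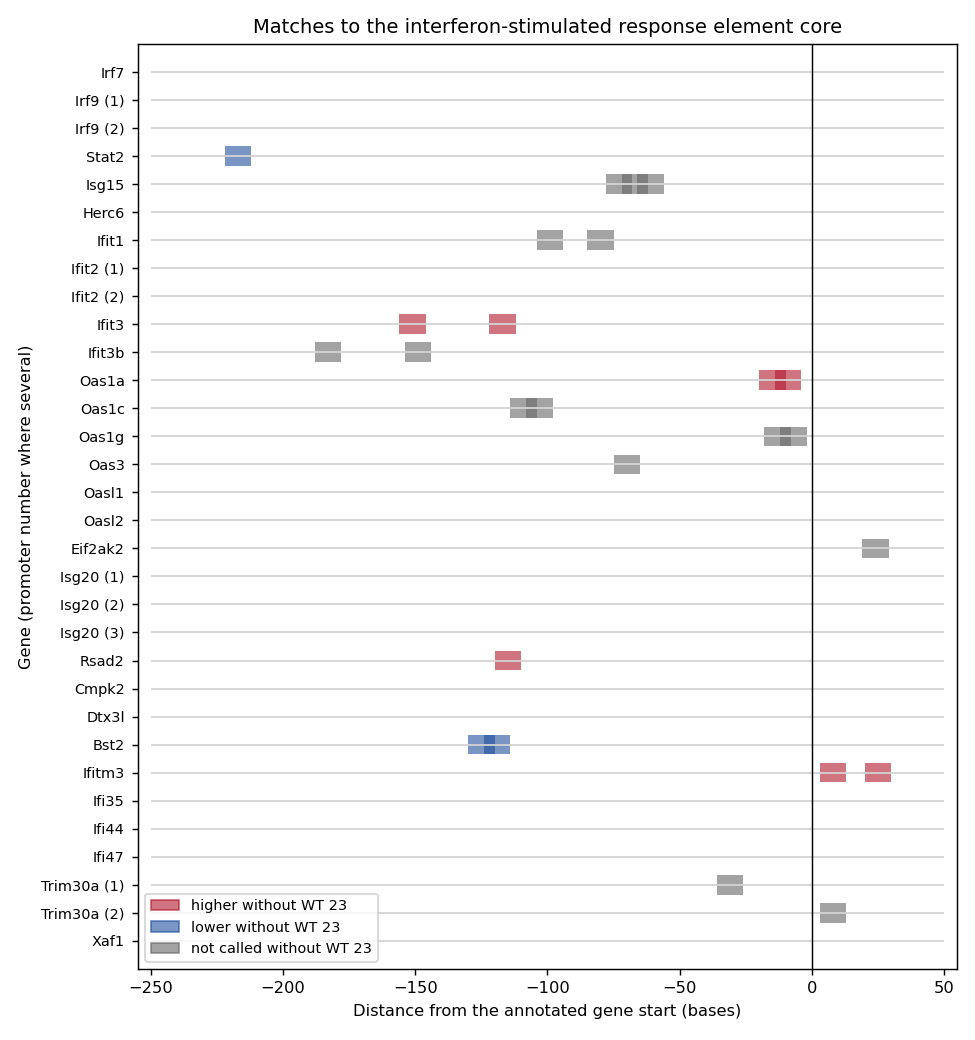
Matches to the ISRE core in the 32 RefSeq promoters of 27 members, each 10-base match drawn as a box at its distance in bases from the annotated start (0), coloured by the member's call without WT 23. Matches stand in 15 of the 32 promoters, among members that were higher, lower and not called alike.

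Without the library labelled WT 23, the interferon-stimulated genes moved in both directions in Atg5 CD11cKO cells. Of the 36 members, 12 were higher and 8 lower at an adjusted p under 0.05 (edgeR's quasi-likelihood test, Benjamini-Hochberg over all genes tested), and 16 were not called. The 20 called members stand beside 31% of all 18241 genes tested (15.9% higher and 15.1% lower). Abundant genes were called more often, and among the genes of at least 10 CPM, which hold 33 members and all 20 calls, the background was 45% (25.1% higher and 19.8% lower). All 36 passed the low-count filter in both fits. Their median log2 fold change was 0.22, against -0.01 over all genes tested. Groups did not overlap for 17 members that were higher (27% of all genes) and 9 that were lower (28%). Under the study's own thresholds, which ask for a 2-fold change at an unadjusted p under 0.05, 2 members were called, Oasl1 and Ifi44, both lower (12.4% of all genes in either direction). Most changes were thus below 2-fold: the 12 higher members ranged from 0.20 to 0.83 on the log2 scale with a median of 0.52, and the 8 lower ones from -1.56 to -0.42 with a median of -0.62.

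Over all 6 libraries as labelled, none of the 36 members was called by edgeR (0% of 17499 genes), and their adjusted p-values lay between 0.338 and 0.976. At an unadjusted p under 0.05 there were 9 members (14.4% of all genes), namely Ifi44, Ifit2, Irf7, Ifit3, Stat2, Ifi47, Ifi27l2a, Oasl2 and Oasl1. DESeq2 called 1 member, Ifi44, which was lower (2.21% of genes with an adjusted p), and limma-voom called none. Groups did not overlap for 6 higher members (9.58% of all genes) and 4 lower ones (8.73%). The median log2 fold change was 0.12, against -0.01 over all genes. In WT 23, 31 of the 36 members were nearer to the Atg5 CD11cKO mean than to the mean of WT 21 and WT 22, and these included all 20 members called without it. The 2 comparisons share 5 libraries, and their values are set side by side below.

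**Figure D2:**
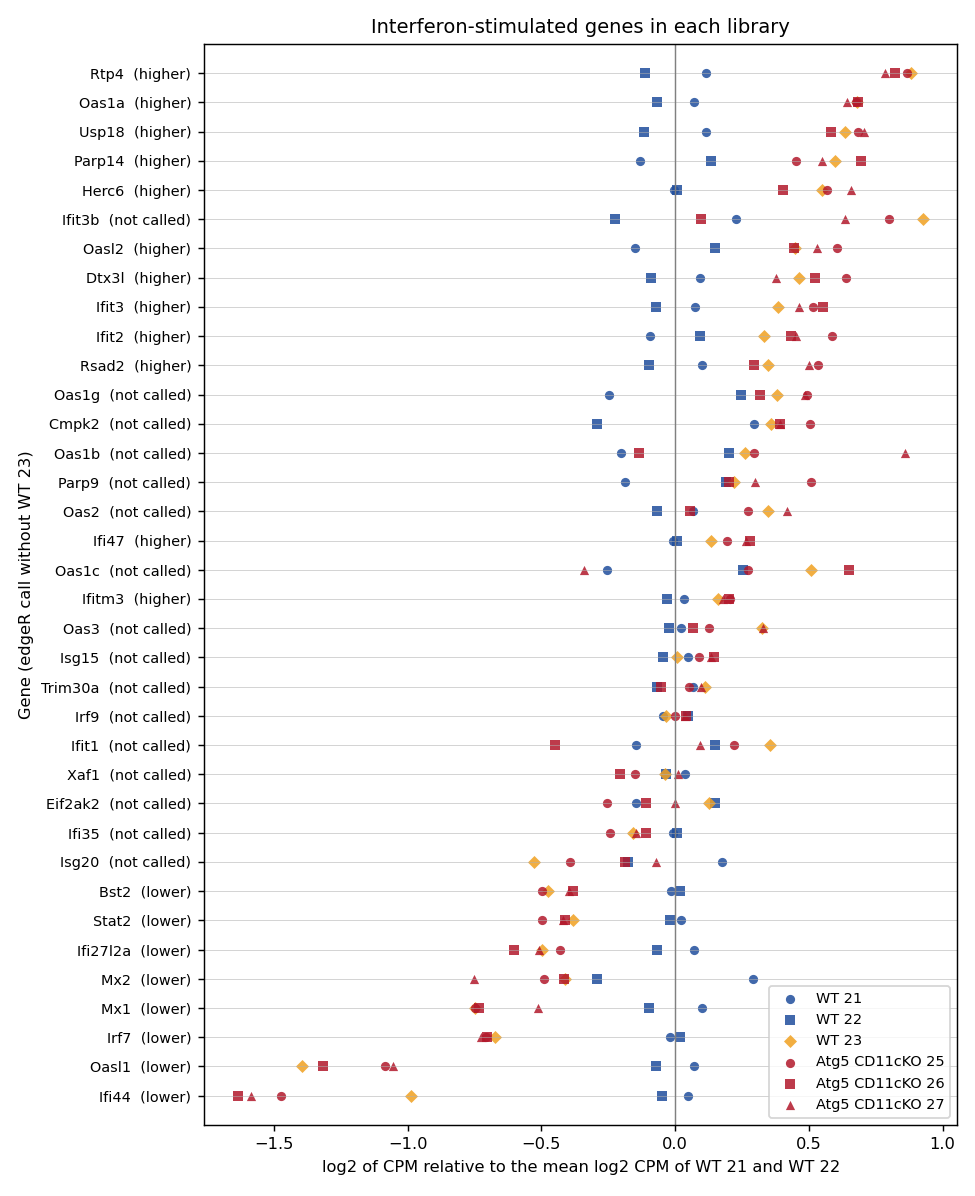
Each of the 36 members in each library, as the log2 of its CPM relative to the mean log2 CPM of WT 21 and WT 22 (0), ordered by the fold change without WT 23, whose call stands beside each symbol. WT 23 (diamonds) lies with the Atg5 CD11cKO libraries (red) for most members, and for Ifi44 it lies between the groups.

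The summed level of the whole set differed little between the groups. All 36 members together summed to 2274 and 2238 CPM in WT 21 and WT 22, 2157 in WT 23, and 2189, 2150 and 2195 in Atg5 CD11cKO 25, 26 and 27. The 12 higher members had sums of 724 CPM (WT 21) and 706.4 CPM (WT 22), beside 914 to 962.7 CPM in the other 4 libraries. The 8 lower members had sums of 975.2 CPM (WT 21) and 950.3 CPM (WT 22), beside 627.2 to 643 CPM in the other 4. These sums describe members sorted by their calls, and carry no test. In bulk libraries such as these, fewer cells of a type and less RNA per cell cannot be told apart.

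Of the 3 members that are transcription factors, 2 were lower and 1 was not called. Irf7 (chr7:141262706-141266481, mm10, minus strand) encodes the factor that drives most interferon-alpha genes. It measured 307.2, 315.1 and 195.1 CPM in WT 21, 22 and 23 and 190.4, 191.0 and 188.2 in Atg5 CD11cKO 25, 26 and 27. WT 21 and WT 22 stood above the other 4 libraries, and the labelled groups did not overlap. Its log2 fold change was -0.71 ± 0.04 (SE; edgeR adjusted p = 1.12e-07) without WT 23 and -0.52 ± 0.18 (adjusted p = 0.338) over all 6. Stat2 (chr10:128270559-128292849), which gives ISGF3 its activation domain, measured 199.4, 193.9 and 150.7 CPM in the WT libraries and 139.4, 147.8 and 147.1 in the Atg5 CD11cKO libraries. Again WT 23 lay just above the Atg5 CD11cKO libraries, so the labelled groups did not overlap. The log2 fold change of Stat2 was -0.44 ± 0.05 (edgeR adjusted p = 3.67e-05) without WT 23 and -0.32 ± 0.12 (adjusted p = 0.340) over all 6. Irf9, the DNA-binding subunit of ISGF3, measured 112.8, 120.3 and 113.6 CPM in the WT libraries and 116.4, 119.9 and 119.6 in the Atg5 CD11cKO libraries, which overlapped. Irf9 had a log2 fold change of 0.03 ± 0.06 without WT 23 and 0.04 ± 0.07 over all 6 and was not called.

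In the ISG15 system, the brake rose while the modifier itself was not called. Isg15, the ubiquitin-like modifier, measured 24.79, 23.24 and 24.09 CPM in the WT libraries and 25.55, 26.56 and 26.36 in the Atg5 CD11cKO libraries. The groups did not overlap, but the gap was small, and the log2 fold change of 0.13 ± 0.11 without WT 23 (edgeR adjusted p = 0.407) did not pass the test. Usp18 (chr6:121245906-121270917), which removes ISG15 from proteins and blocks the receptor subunit IFNAR2, measured 45.05, 38.33 and 64.58 CPM in the WT libraries and 66.77, 62.29 and 67.79 in the Atg5 CD11cKO libraries. WT 23 fell inside the Atg5 CD11cKO range, and WT 21 and WT 22 below it. Usp18 had a log2 fold change of 0.66 ± 0.09 (edgeR adjusted p = 1.84e-04) without WT 23 and 0.41 ± 0.18 (adjusted p = 0.349) over all 6. Herc6, the main ligase for ISG15 in mice, measured 22.43, 22.61 and 32.91 CPM in the WT libraries and 33.34, 29.77 and 35.55 in the Atg5 CD11cKO libraries, with WT 23 again inside the Atg5 CD11cKO range. Herc6 had a log2 fold change of 0.55 ± 0.11 (edgeR adjusted p = 0.00315) without WT 23 and 0.34 ± 0.17 over all 6. Of its 50-base stretches, 12.5% also occur in other genes, mostly in the overlapping transcript Gm45193 on the same strand, which makes its count less certain.

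**Figure D3:**
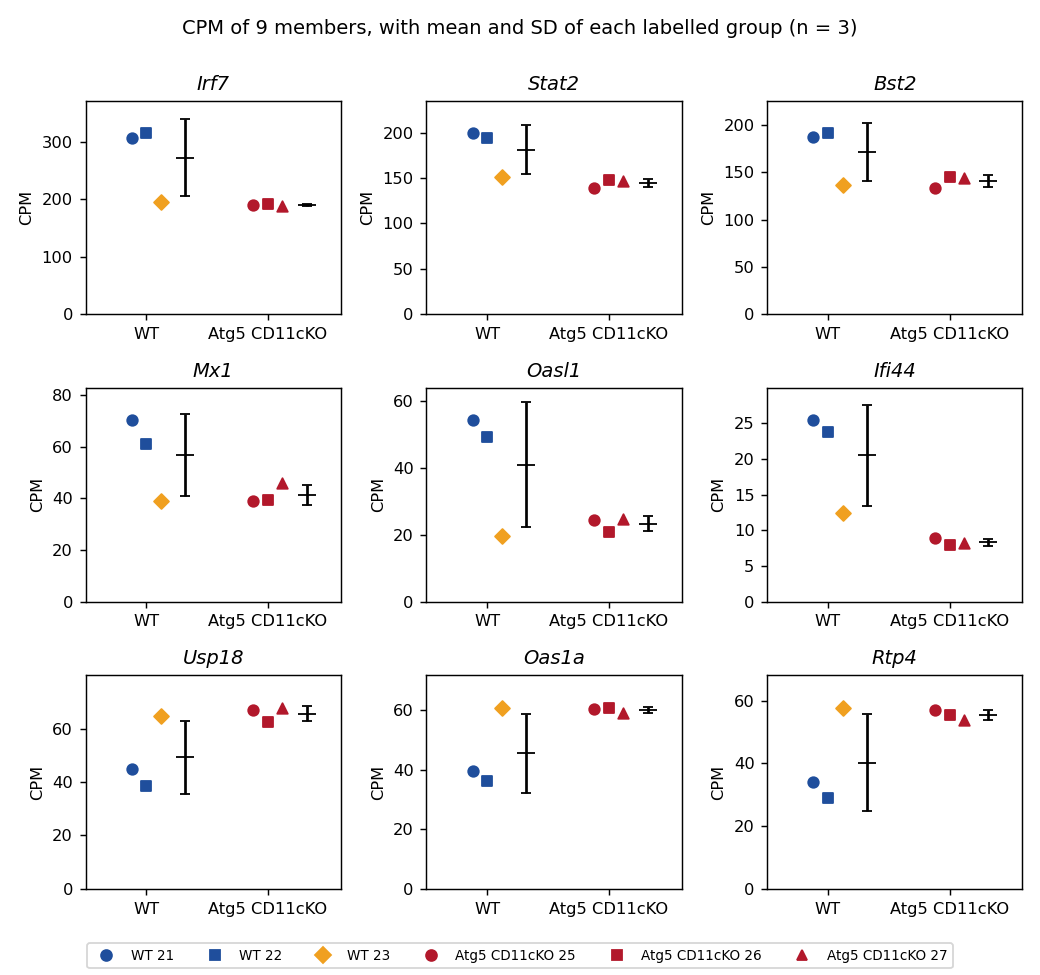
CPM of 9 members in each library on linear axes from 0, with the mean and SD of each labelled group (n = 3) as a bar to the right of its points. Irf7, Stat2, Bst2, Mx1, Oasl1 and Ifi44 are lower and Usp18, Oas1a and Rtp4 higher in the Atg5 CD11cKO libraries than in WT 21 and WT 22, and WT 23 (diamond) widens the SD of the WT group in every panel.

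Of the IFIT family on chromosome 19, whose proteins bind foreign RNA and halt its translation, 2 members rose and 2 were not called. Ifit2 (chr19:34550694-34576419) measured 40.07, 45.67 and 53.89 CPM in the WT libraries and 64.21, 57.73 and 58.54 in the Atg5 CD11cKO libraries. Every Atg5 CD11cKO library was above every WT library, WT 23 included. Ifit2 rose by 0.49 ± 0.09 on the log2 scale (edgeR adjusted p = 0.00150) without WT 23, and its value over all 6 was 0.37 ± 0.12 (adjusted p = 0.338). Ifit3 (chr19:34583531-34588731) followed the same order, with 38.70, 34.99 and 48.09 CPM in the WT libraries and 52.54, 53.94 and 50.77 in the Atg5 CD11cKO libraries. Ifit3 had a log2 fold change of 0.51 ± 0.09 (edgeR adjusted p = 8.85e-04) without WT 23 and 0.37 ± 0.13 over all 6. Ifit3b, its near copy, had only 5.382, 3.937 and 8.753 CPM in the WT libraries and 8.014, 4.921 and 7.141 in the Atg5 CD11cKO libraries, which overlapped. The log2 fold change of Ifit3b was 0.53 ± 0.26 without WT 23 (edgeR adjusted p = 0.161). Since 51.2% of the 50-base stretches of Ifit3 also occur in Ifit3b, the division of reads between this pair is uncertain. Ifit1 scattered within both groups, with 13.59, 16.69 and 19.26 CPM in the WT libraries and 17.54, 11.03 and 16.07 in the Atg5 CD11cKO libraries. It had a log2 fold change of -0.02 ± 0.20 without WT 23 and -0.15 ± 0.21 over all 6.

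The OAS family on chromosome 5 makes or mimics the enzymes that turn double-stranded RNA into 2-5A, the messenger that activates RNase L, and its 8 members divided into 2 higher, 1 lower and 5 not called. Oas1a (chr5:120896256-120907521, minus strand), an active synthetase, measured 39.70, 36.08 and 60.63 CPM in the WT libraries and 60.52, 60.79 and 59.04 in the Atg5 CD11cKO libraries. WT 23 fell inside the range of the Atg5 CD11cKO libraries, far above WT 21 and WT 22. The log2 fold change of Oas1a was 0.67 ± 0.08 (edgeR adjusted p = 7.66e-05) without WT 23 and 0.40 ± 0.19 (adjusted p = 0.352) over all 6. Oasl2 (chr5:114896936-114912234), an OAS-like protein with ubiquitin-like domains, measured 52.17, 64.26 and 78.90 CPM in the WT libraries and 88.00, 78.85 and 83.55 in the Atg5 CD11cKO libraries. WT 23 lay at the lower edge of the Atg5 CD11cKO range. On the log2 scale Oasl2 rose by 0.53 ± 0.09 without WT 23 (edgeR adjusted p = 0.00122), with 0.36 ± 0.15 over all 6.

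The neighbouring gene Oasl1 moved the other way. Oasl1 (chr5:114923240-114937915), which in mice restrains translation of Irf7 mRNA, measured 54.16, 49.11 and 19.61 CPM in the WT libraries and 24.30, 20.72 and 24.82 in the Atg5 CD11cKO libraries. WT 23 had the lowest value of all 6 libraries, so the labelled groups overlapped. The log2 fold change of Oasl1 was -1.14 ± 0.11 (edgeR adjusted p = 9.02e-06) without WT 23 and -0.82 ± 0.34 (adjusted p = 0.347) over all 6. Oas1g, which shares 45.2% of its 50-base stretches with Oas1a, measured 13.56, 19.09 and 20.94 CPM in the WT libraries and 22.63, 20.02 and 22.55 in the Atg5 CD11cKO libraries. Without WT 23 its log2 fold change of 0.42 ± 0.16 was not called (edgeR adjusted p = 0.0671). The division of reads between Oas1a and Oas1g is uncertain for the same reason as in the Ifit3 pair. The larger synthetases were not called either. Oas2 measured 15.31, 13.94 and 18.56 CPM in the WT libraries and 17.63, 15.16 and 19.53 in the Atg5 CD11cKO libraries, with a log2 fold change of 0.26 ± 0.15 without WT 23. Oas3 measured 21.00, 20.36 and 25.91 CPM in the WT libraries and 22.57, 21.64 and 25.98 in the Atg5 CD11cKO libraries, with a log2 fold change of 0.18 ± 0.12. Oas1b, annotated as a polymorphic pseudogene, and Oas1c were the least abundant of the family, at 1.431 to 2.988 and 2.139 to 4.248 CPM, and their groups overlapped.

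Both MX genes, GTPases that trap viral nucleoproteins, were lower without WT 23. Mx1 (chr16:97447035-97462907, minus strand) measured 70.21, 61.21 and 39.05 CPM in the WT libraries and 39.01, 39.46 and 45.96 in the Atg5 CD11cKO libraries. WT 21 and WT 22 stood above the other 4 libraries, with WT 23 inside the Atg5 CD11cKO range. Mx1 had a log2 fold change of -0.66 ± 0.10 (edgeR adjusted p = 3.55e-04) without WT 23 and -0.45 ± 0.21 (adjusted p = 0.351) over all 6. Mx2 (chr16:97535308-97560900), annotated as a polymorphic pseudogene, measured 16.86, 11.25 and 10.34 CPM in the WT libraries and 9.809, 10.33 and 8.179 in the Atg5 CD11cKO libraries. The groups did not overlap, yet WT 21 alone was far from the rest. Its log2 fold change of -0.57 ± 0.20 without WT 23 stood at the threshold (edgeR adjusted p = 0.0496) and became -0.25 (adjusted p = 0.444) with WT 21 also left out. Both genes are known to carry disabling mutations in common laboratory strains, so their RNA levels say nothing of a working protein.

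Among the effectors that act on RNA and nucleotides, 1 of 4 rose. Rsad2 (chr12:26442746-26456452, minus strand) encodes viperin, which makes a chain-terminating nucleotide. It measured 21.96, 19.15 and 26.10 CPM in the WT libraries and 29.68, 25.12 and 29.03 in the Atg5 CD11cKO libraries, with WT 23 inside the Atg5 CD11cKO range. Rsad2 had a log2 fold change of 0.45 ± 0.12 (edgeR adjusted p = 0.0174) without WT 23 and 0.32 ± 0.14 over all 6, and leaving out WT 22, Atg5 CD11cKO 25 or Atg5 CD11cKO 27 as well gave adjusted p-values of 0.0989, 0.0605 and 0.0598. Cmpk2, its neighbour on chromosome 12 and a mitochondrial nucleotide kinase, measured 18.51, 12.31 and 19.35 CPM in the WT libraries and 21.38, 19.80 and 19.82 in the Atg5 CD11cKO libraries. WT 22 alone was far below, and the log2 fold change of 0.41 ± 0.17 without WT 23 was not called (edgeR adjusted p = 0.0927). Eif2ak2, the kinase PKR that halts translation on sensing double-stranded RNA, measured 13.28, 16.31 and 16.07 CPM in the WT libraries and 12.34, 13.66 and 14.69 in the Atg5 CD11cKO libraries, which overlapped. Isg20, an exonuclease that degrades RNA, measured 17.42, 13.65 and 10.69 CPM in the WT libraries and 11.73, 13.54 and 14.66 in the Atg5 CD11cKO libraries, which overlapped also. Neither was called, with log2 fold changes of -0.12 ± 0.15 and -0.22 ± 0.16 without WT 23.

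PARP9 and DTX3L form a complex of an ADP-ribosyltransferase and a ubiquitin ligase that modifies histones and viral proteins, and of these genes and Parp14, 2 rose and Parp9 was not called. Dtx3l (chr16:35926511-35939151, minus strand) measured 51.39, 45.26 and 66.55 CPM in the WT libraries and 75.14, 69.32 and 62.69 in the Atg5 CD11cKO libraries. WT 21 and WT 22 lay below the other 4. Dtx3l had a log2 fold change of 0.52 ± 0.09 (edgeR adjusted p = 0.00145) without WT 23 and 0.34 ± 0.15 over all 6. Parp14 (chr16:35832874-35871544, minus strand), a mono-ADP-ribosyltransferase, measured 18.07, 21.73 and 29.98 CPM in the WT libraries and 27.09, 32.06 and 29.00 in the Atg5 CD11cKO libraries. Again WT 23 fell inside the Atg5 CD11cKO range. Parp14 had a log2 fold change of 0.57 ± 0.13 (edgeR adjusted p = 0.00567) without WT 23 and 0.34 ± 0.19 over all 6. Parp9 (chr16:35938470-35972605, plus strand) measured 42.53, 55.23 and 56.37 CPM in the WT libraries and 68.89, 55.72 and 59.55 in the Atg5 CD11cKO libraries, with a log2 fold change of 0.33 ± 0.12 (edgeR adjusted p = 0.0569) without WT 23. Parp9 overlaps Dtx3l by 682 bases and the antisense gene Gm15564 by 5854 bases, both on the opposite strand, and without a statement of strand in the counting their reads cannot be told apart.

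The membrane proteins all passed the test without WT 23, and 2 of the 3 fell. Bst2 (chr8:71534255-71537456, minus strand), tetherin, which holds budding virus at the cell surface and is a surface marker of plasmacytoid DCs in resting mice, measured 186.7, 191.2 and 136.0 CPM in the WT libraries and 133.8, 145.1 and 143.4 in the Atg5 CD11cKO libraries. WT 21 and WT 22 were above the other 4. Bst2 had a log2 fold change of -0.42 ± 0.05 (edgeR adjusted p = 8.54e-05) without WT 23 and -0.28 ± 0.14 (adjusted p = 0.357) over all 6. Ifi27l2a (chr12:103442167-103443680, minus strand), a small hydrophobic protein of the ISG12 family, measured 115.3, 104.8 and 77.76 CPM in the WT libraries and 81.65, 72.43 and 77.19 in the Atg5 CD11cKO libraries. It showed the same division of the libraries as Bst2, with a log2 fold change of -0.51 ± 0.07 (edgeR adjusted p = 2.22e-04) without WT 23 and -0.37 ± 0.15 over all 6. Ifitm3 (chr7:141009586-141010770, minus strand), which blocks fusion of viruses in endosomes, measured 280.6, 268.6 and 306.4 CPM in the WT libraries and 316.3, 315.2 and 310.8 in the Atg5 CD11cKO libraries. All Atg5 CD11cKO libraries were above all WT libraries. The difference was small, a log2 fold change of 0.20 ± 0.04 (edgeR adjusted p = 0.00235) without WT 23 and 0.14 ± 0.08 over all 6.

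Bst2 and Irf7 are both high in resting plasmacytoid DCs. Of the 17 markers of that cell type, 15 were lower without WT 23, beside 15.1% of all genes (19.8% of those of at least 10 CPM). Siglech, a surface receptor of these cells, measured 772.0 and 758.1 CPM in WT 21 and WT 22, 304.1 in WT 23 and 297.2 to 301.1 in the Atg5 CD11cKO libraries, a log2 fold change of -1.35 without WT 23. Tcf4, their master transcription factor, had a log2 fold change of -0.70, and Bcl11a, another of their factors, was not called (-0.02). The marker that rose was Cybb, with a log2 fold change of 0.63 without WT 23. The part of plasmacytoid DCs in the levels of Bst2 and Irf7 was not tested.

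Of the other effectors, 2 rose, 1 fell and 3 were not called. Ifi44 (chr3:151730922-151749960, minus strand), an interferon-induced protein with a GTPase-like domain, had the largest change of the 36 members. It measured 25.39, 23.77 and 12.38 CPM in the WT libraries and 8.848, 7.916 and 8.179 in the Atg5 CD11cKO libraries. Here WT 23 lay between the groups, 0.58 above the Atg5 CD11cKO mean on the log2 scale, where the next largest distance among the 20 called members was 0.24 (Oasl1, below that mean). Its log2 fold change was -1.56 ± 0.14 (edgeR adjusted p = 5.03e-06) without WT 23 and -1.30 ± 0.27 (adjusted p = 0.338) over all 6. Rtp4 (chr16:23520291-23614222), a chaperone of receptor transport that also inhibits some flaviviruses, had the largest rise, from 33.91 and 28.92 CPM in WT 21 and WT 22 to 57.06, 55.29 and 53.95 in the Atg5 CD11cKO libraries, with 57.71 in WT 23. WT 23 was thus the highest of the 6 libraries. Rtp4 had a log2 fold change of 0.83 ± 0.09 (edgeR adjusted p = 4.58e-05) without WT 23 and 0.46 ± 0.24 over all 6, and 11.6% of its 50-base stretches recur in the overlapping transcript Gm45338.

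Ifi47 (chr11:49076587-49096974), an immunity-related GTPase, measured 79.95, 80.78 and 88.23 CPM in the WT libraries and 92.00, 97.50 and 96.57 in the Atg5 CD11cKO libraries. All WT libraries were below all Atg5 CD11cKO libraries. Its log2 fold change was 0.25 ± 0.06 (edgeR adjusted p = 0.00844) without WT 23 and 0.20 ± 0.08 over all 6. Ifi35, which binds NMI, ranged from 97.71 to 116.4 CPM, with a log2 fold change of -0.16 ± 0.06 (edgeR adjusted p = 0.0679) without WT 23. Trim30a, a TRIM ligase that dampens TLR signalling in mice, ranged from 109.5 to 123.8 CPM, and Xaf1, an antagonist of the apoptosis inhibitor XIAP, from 31.33 to 37.02 CPM. Neither was called, with log2 fold changes of 0.04 ± 0.07 and -0.11 ± 0.10.

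**Figure D4:**
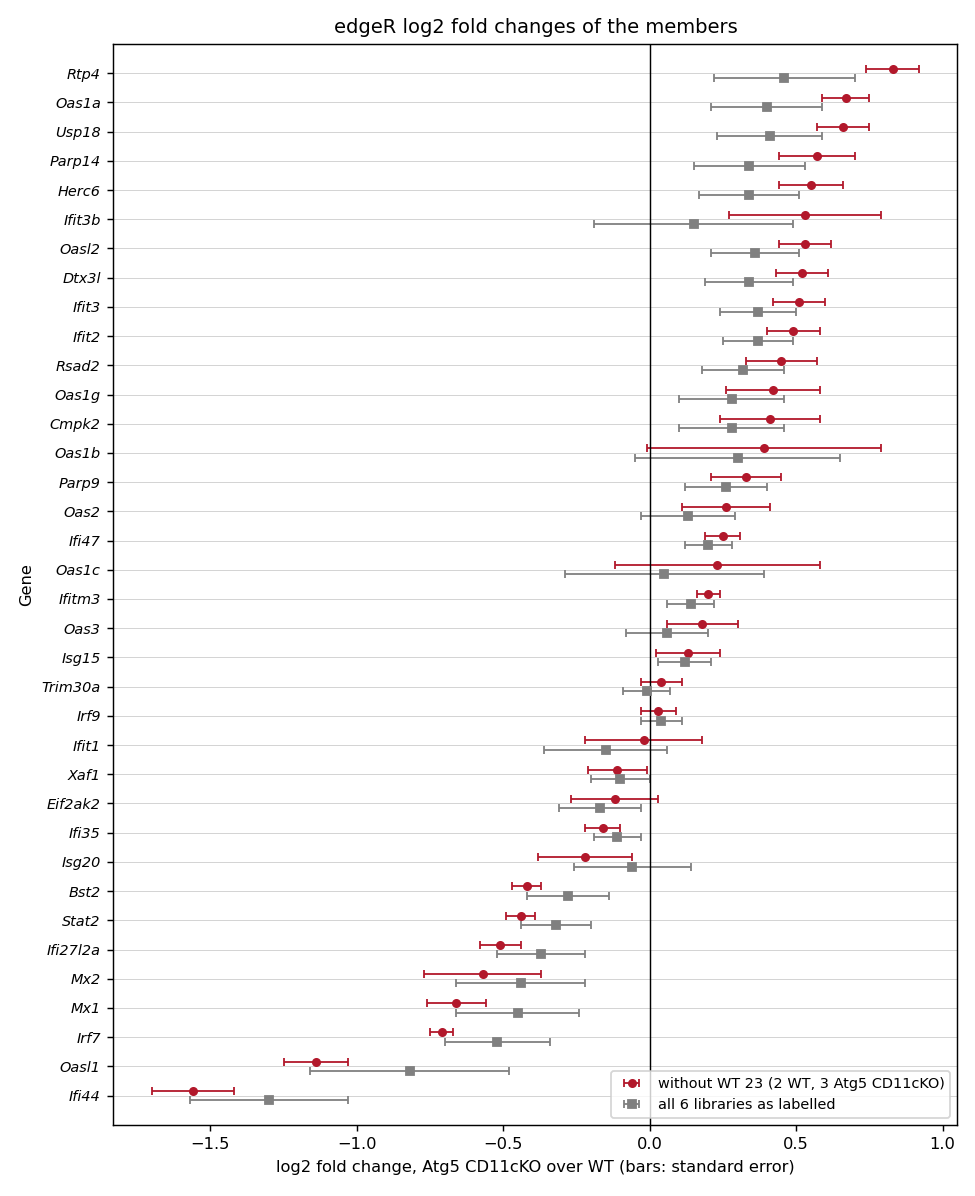
edgeR log2 fold changes (Atg5 CD11cKO over WT) of the 36 members with their standard errors, without WT 23 (red circles) and over all 6 libraries (grey squares). The values run from -1.56 (Ifi44) to 0.83 (Rtp4) without WT 23 and from -1.30 to 0.46 over all 6, with wider errors over all 6 for every member called without WT 23.

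Per exon length, the membrane proteins were the most abundant members in both groups. Ifitm3 reached 405 CPM per kb in the mean of WT 21 and WT 22 and 463 in the mean of the Atg5 CD11cKO libraries. Ifi27l2a followed with 238 and 167 CPM per kb, and Bst2 with 209 and 156. Irf7 came next in WT 21 and WT 22 at 82.4 CPM per kb, and in Atg5 CD11cKO at 50.3 it stood below Ifi35 (67.1 and 59.8 CPM per kb). At the other end, Oas1b reached 0.835 and 1.09 CPM per kb, the lowest level of the 36 in both groups. Ifi44 dropped from rank 26 to rank 34 of the 36, from 4.01 to 1.36 CPM per kb.

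**Figure D5:**
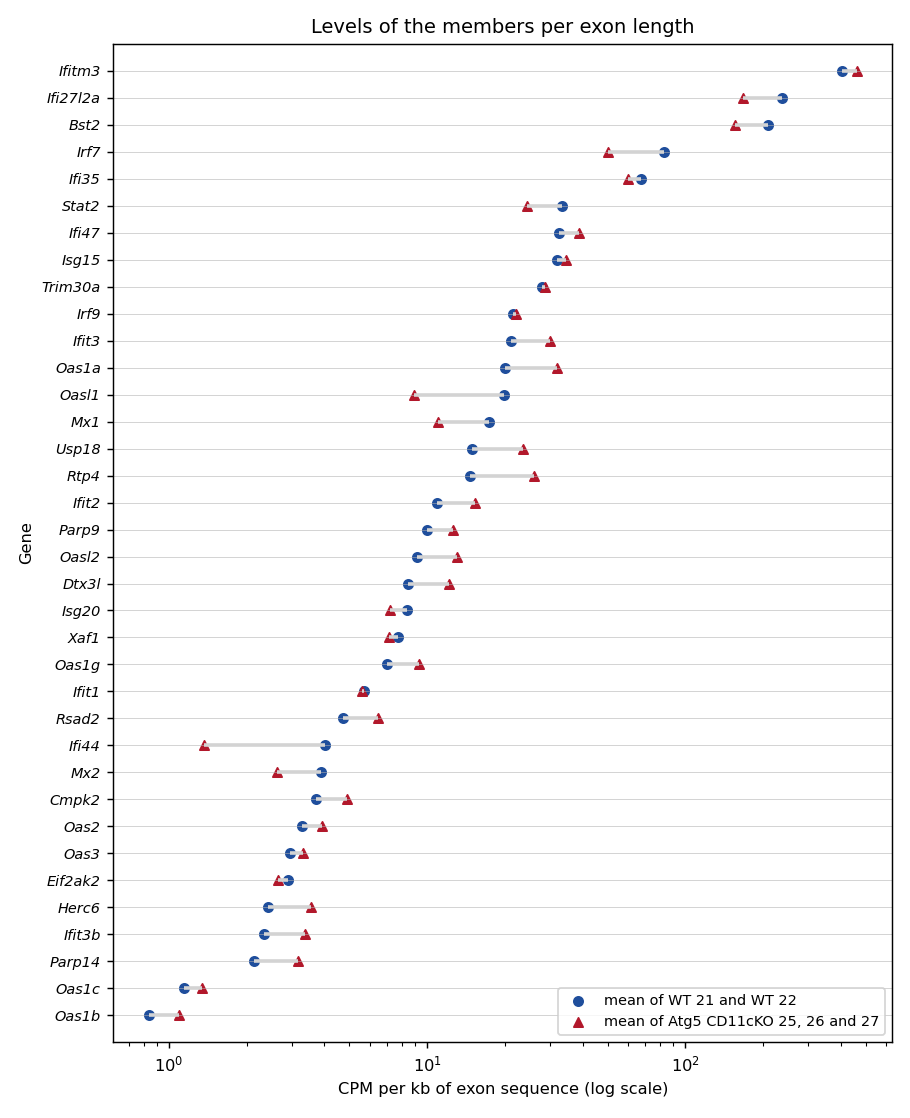
Level of each member in CPM per kb of exon sequence on a log axis, as the mean of WT 21 and WT 22 (blue circles) and of the 3 Atg5 CD11cKO libraries (red triangles). The levels span from 0.835 (Oas1b) to 463 (Ifitm3) CPM per kb, and the grey lines join the groups of each member.

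Type I interferon genes were scarcely detected, whereas Ifng was measured well. Of 21 interferon genes on the list, 7 were found in the count table and 14 were not analysed here. Ifnb1, the gene of interferon-beta, had 47, 53 and 13 counts in the WT libraries and 19, 26 and 7 in the Atg5 CD11cKO libraries, so that WT 23 again lay within the Atg5 CD11cKO range. Its log2 fold change was -1.47 ± 0.57 without WT 23 (edgeR adjusted p = 0.0733) and -1.08 ± 0.66 over all 6, and it was not called. Ifna1, Ifna2, Ifna5 and Ifnab had at most 2 counts in any library, where a count of 0 allows up to 3 counts, and a difference was not detectable at this depth. Ifng, the gene of the type II interferon, measured 23.05, 22.14 and 10.73 CPM in the WT libraries and 12.25, 11.06 and 11.14 in the Atg5 CD11cKO libraries. It was lower without WT 23, with a log2 fold change of -0.97 ± 0.13 (edgeR adjusted p = 1.70e-04) beside -0.70 ± 0.28 over all 6. Markers of NK cells, a main source of Ifng, had sums of 1583 and 1550 CPM (WT 21 and 22) beside 543.8 to 558.5 CPM in the other 4 libraries. Of these 10 markers, 6 were lower and 4 not called without WT 23. Those not called were Eomes (log2 fold change 0.59), Klra8 (1.07), Tbx21 (0.00) and Klre1 (-0.23). Gzmb and Gzma held much of the sums. Gzmb measured 680.5 and 672.8 CPM in WT 21 and WT 22 beside 109 to 116 CPM, and Gzma 308.4 and 303.5 beside 68.18 to 75.28 CPM. T cell markers summed to 411.5 and 415 CPM beside 188.7 to 203.6 CPM, with 7 of 9 lower and 2 not called. Both counts stand beside 15.1% of all genes lower, and 19.8% of those of at least 10 CPM. The part of these cells in the level of Ifng was not tested.

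Among 17 genes of the receptors and proximal signalling, 4 were higher and 7 lower without WT 23, where 15.9% of all genes were higher and 15.1% lower (25.1% and 19.8% of those of at least 10 CPM), and none was called over all 6. The receptor of type I interferon differed little, since Ifnar1 had a log2 fold change of -0.14 ± 0.04 (edgeR adjusted p = 0.0304) and Ifnar2 one of 0.05 ± 0.06, which was not called. Its kinases Jak1 (0.07 ± 0.05) and Tyk2 (-0.10 ± 0.06) were not called. Irf8, a factor required for type 1 conventional DCs, was lower without WT 23 (-0.45 ± 0.02), as was Irf1 (-0.23 ± 0.04), which interferon-gamma induces. Of the receptor chains of other interferons, Ifngr1 (-0.60 ± 0.03) was lower, Ifngr2 (0.83 ± 0.07) and Il10rb (0.75 ± 0.05) were higher, and Ifnlr1 (0.02 ± 0.33) was not called. Jak2, a kinase of the interferon-gamma receptor, was lower (-0.50 ± 0.06).

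Of 16 genes on the list of negative regulators, 4 were higher and 2 lower without WT 23. This stands beside 31% of all genes called in either direction and 45% of those of at least 10 CPM. The list also holds 2 genes of ISG15 conjugation, Uba7 and Ube2l6. Ptpn6, the phosphatase SHP-1, had a log2 fold change of 0.69 ± 0.03, Adar, which edits double-stranded RNA, one of 0.53 ± 0.08, and Pias4, a SUMO ligase that restrains STAT proteins, one of 0.76 ± 0.14. Uba7, the activating enzyme for ISG15, was lower (-0.62 ± 0.05), and Ube2l6 was not called (-0.10 ± 0.07). Within the ISG15 system the activating enzyme thus fell while Usp18 and Herc6 rose. Nlrc5, a regulator of MHC class I genes, was lower as well (-0.57 ± 0.07), and Socs1, the inhibitor of JAK kinases, was not called (-0.20 ± 0.15). Of 84 other interferon-inducible genes, 82 were tested, and 22 were higher and 20 lower without WT 23, read against the same shares of 31% and 45%, with a median log2 fold change of 0.06 (-0.01 over all genes). The 4 with the smallest p were all lower, namely Apobec3 (-2.47 ± 0.05, and -2.02 ± 0.55 over all 6), a restriction factor of retroviruses, and the surface protein genes Ly6a (-1.90 ± 0.05), Ly6c2 (-1.58 ± 0.04) and Ly6e (-0.47 ± 0.02). None of these genes was called by edgeR over all 6 libraries. There, 3 of the 16 genes on the negative regulator list and 22 of the 82 other inducible genes had an unadjusted p under 0.05. The share over all 17499 genes was 14.4%. The lists share 3 genes.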

How the data were processed

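For the 6 libraries, the submitters' processing notes name STAR 2.5.3a, Partek, bcl2fastq 2.17.1.14 and the build mm10. The deposited table of estimated counts was used for all tests. How the authors counted, and whether by strand, is not stated in those notes or the methods, and 32.9% of all values and 7.9% of the 216 member values were whole within 1e-06. The deposited normalized signal, which holds 20388 genes, served as an alternative, on the log2 scale with pseudocounts of 1 and 0.1. Counts were rounded, filtered by filterByExpr and scaled by TMM, and the genotypes were tested with the quasi-likelihood model of edgeR 4.0.16 in R 4.3.3, with standard errors from the log2 fold change and F. limma 3.58.1 and DESeq2 1.42.0 were alternatives, beside other scalings, filters and leaving out each library. The test was checked on simulated data. There, all libraries of a group shared the same mean, so the check does not cover a library such as WT 23. Figures used matplotlib 3.10.9 under Python 3.11.15. Coordinates are those of GENCODE vM21 (mm10), and the share of 50-base stretches occurring in other genes was taken from its transcripts. Members and lists were chosen with earlier results of these data known. All members are named, with values per library for 16 core members and up to 3 more per role by the smallest p without WT 23. Of the pathway genes that were to be named, 1 is not reported here.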

Additional observations from a re-analysis of the deposited data

How the results depend on the processing

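The comparison without the library labelled WT 23 rests on 2 WT libraries, which limits its precision. Over all 6 libraries, edgeR called 0 members, DESeq2 called 1 (0 higher, 1 lower), and the rule of a 2-fold change at an unadjusted p under 0.05 called 1 (1 lower), where 128 of all 17499 genes were higher and 695 lower by that rule. Leaving out each library in turn gave 0 to 20 members called, 0 to 12 higher and 0 to 8 lower. All calls came from leaving out WT 23, a fit that called 31% of all 18241 genes tested. Without WT 23, the 2-fold rule called 2 members (0 higher, 2 lower), where 941 of all 18241 genes were higher and 1327 lower. Leaving out a further Atg5 CD11cKO library gave 18 to 20 members called, 11 to 13 higher and 7 lower. In these fits, 2353 to 2456 of the 17889 to 17909 genes tested were higher and 2170 to 2345 lower. With WT 21 or WT 22 left out, the lone WT library was assumed to vary like the others. Mx2 was no longer called with limma-voom, library totals, no filter, the normalized signal at either pseudocount, or without WT 21 or any Atg5 CD11cKO library, and Rsad2 was no longer called without WT 22, Atg5 CD11cKO 25 or Atg5 CD11cKO 27. Oas1g, Parp9, Ifi35 and Cmpk2 were gained in some alternatives. No called member changed sign. The members that did were not called. Over all 6 libraries, leaving out 1 library at a time gave -0.28 to 0.03 for Ifit1, -0.08 to 0.53 for Ifit3b, -0.20 to 0.28 for Oas1c, -0.01 to 0.18 for Oas3, -0.22 to 0.13 for Isg20 and -0.06 to 0.04 for Trim30a, which was also 0.00 with library totals and with no filter. Without WT 23, leaving out a further library gave -0.01 to 0.08 for Irf9, -0.16 to 0.16 for Ifit1, -0.02 to 0.51 for Oas1c, -0.26 to 0.04 for Eif2ak2 and -0.02 to 0.11 for Trim30a. Beyond the construction of each alternative, the cause was not tested. No paired analysis was possible because the WT and Atg5 CD11cKO libraries share no replicate number.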

Other observations

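Genes named here were chosen after their values were seen. Of the 22 other interferon-inducible genes that were higher without WT 23, 4 are given here, beside 20 that were lower. Fcgr1, a high-affinity receptor for IgG, had a log2 fold change of 1.41 ± 0.09 (SE; edgeR adjusted p = 3.58e-07), Ms4a6d one of 1.11 ± 0.07, Ifi204, a DNA sensor, one of 0.78 ± 0.07, and Ifi30, a lysosomal thiol reductase, one of 0.68 ± 0.04. Over all 6 libraries as labelled, none of these was called, with 0.71 ± 0.39 for Fcgr1 and 0.41 ± 0.18 for Ifi30. Summed lipid-associated macrophage markers were higher and summed Kupffer cell markers lower in the same libraries, and the part of these cells in the values was not tested.

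A few genes set the library labelled WT 23 apart from the Atg5 CD11cKO libraries. Ifi44 measured 12.38 CPM in WT 23, above 7.916 to 8.848 in the Atg5 CD11cKO libraries and below 23.77 and 25.39 in WT 22 and WT 21. Nlrc5 measured 107.5 CPM in WT 23, beside 77.69 to 88.96 in the Atg5 CD11cKO libraries, 117.6 in WT 21 and 126.5 in WT 22, so that it lay nearer to the libraries of its own label. Atg5 was not such a gene. At 22.06 CPM in WT 23 it lay near the Atg5 CD11cKO libraries (20.76 to 21.29) and far below WT 21 (53.97) and WT 22 (49.76).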
